A study of Mus musculus with 3 samples.

Results

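The 44 genes described here build the machinery that copies DNA and the machinery that repairs it by copying from a sister strand. They were chosen by symbol, from what their products do, with no threshold on the values of these arrays. Earlier results of these data were known when the choice was made, so it was not blind to them. Of the 44, 42 had a value from probe sets that carry 1 gene symbol, out of 22180 genes measured in all. The probe set of Rfc4, a subunit of the clamp loader, also carries Eif4a2, and that of Fanca, a Fanconi anaemia protein, also carries Zfp276, so neither gene was given a value. Of the 42, 39 were read by 1 probe set and Pole, Fen1 and Atr by 2. Mcm7 and Rad54l also have probe sets that carry another symbol, and these were not used.

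RNA was measured on 3 mouse whole-transcript arrays, 1 for each group. FULA 1 is a mouse lung adenocarcinoma line, grown in culture in DMEM with 10% fetal bovine serum. The other arrays hold what the labels call lung cells of FVB mice, an inbred strain prone to lung tumours, after an injection of saline or of urethane. Urethane damages DNA once the liver and lung have metabolised it, and mice given it grow lung adenomas; that lung was taken 1 week after the injection into the peritoneum. The labels give neither the number of mice behind a lung array nor the time of the saline lung. With 1 array per group there is no replicate error, no test was made, and each difference below is one between arrays rather than between conditions.

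DNA replication is licensed before S phase, when the origin recognition complex, Cdc6 and Cdt1 load a double ring of Mcm2 to Mcm7 onto DNA. The kinase of Cdc7 and its activator Dbf4, with Cdc45 and the GINS complex, then turn the ring into the running helicase, and polymerases, the sliding clamp and ligase follow behind it. When a fork stalls or a strand breaks, Atr and Chek1 hold the cell cycle, the Fanconi anaemia proteins act on crosslinked DNA, and Brca1, Bard1 and Brca2 lead repair by homologous recombination. Most of these genes are transcribed late in G1 and in S phase, many under E2F factors, and few cells of an adult lung divide.

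Values are deposited log2 values after quantile normalization of the 3 arrays, called normalized log2 values below, and a difference is one between 2 such values of the same gene. The percentile rank of a gene is its place among the probe sets of its own array and does not depend on how arrays are scaled. As a background mark served the level under which 95% of 1105 olfactory receptor genes lay, which was 1.96 for FULA 1, 2.46 for saline lung and 2.44 for urethane lung. Where the lower value of a pair lay under its mark, "at least" gives the higher value minus that mark. A gene was called higher or lower at 2-fold or more (1 on the log2 scale) with the higher value at or above 2.37, the median of all gene values.

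E2F factors act through sites in the promoters of S-phase genes. The octamers TTTCCCGC, TTTCGCGC, TTTGCCGC and TTTGGCGC were searched on both strands, overlapping matches included. The stretches below are shown because they carry such a match before the RefSeq start, in capitals, in genes with large and with small differences alike. The longer ones, of Mcm5 (GRCm38.p6, chr8:75109339-75109467, plus strand) and Mcm6 (chr1:128359706-128359835, minus strand), end before the first transcribed base that RefSeq lists. All are written 5′ to 3′ on the gene's own strand.
Mcm5: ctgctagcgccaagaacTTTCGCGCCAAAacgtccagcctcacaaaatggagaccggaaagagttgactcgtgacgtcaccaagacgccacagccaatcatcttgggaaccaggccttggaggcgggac
Mcm6: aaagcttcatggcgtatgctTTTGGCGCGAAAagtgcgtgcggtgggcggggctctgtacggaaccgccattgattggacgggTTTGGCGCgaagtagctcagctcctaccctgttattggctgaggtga
Sites of 30 bases follow for Mcm7 (chr5:138172030-138172059, minus strand), Bard1 (chr1:71103163-71103192, minus), Brca2 (chr5:150522442-150522471, plus), Cdc6 (chr11:98908002-98908031, plus), Pola1 (chrX:93632275-93632304, minus), Gins3 (chr8:95633507-95633536, plus), Orc1 (chr4:108579416-108579445, plus) and Rfc3 (chr5:151651195-151651224, minus), all of GRCm38.p6.
Mcm7: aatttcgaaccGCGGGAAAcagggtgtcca
Bard1: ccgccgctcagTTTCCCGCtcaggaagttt
Brca2: tttaggccacaGCGGGAAAcagacacacac
Cdc6: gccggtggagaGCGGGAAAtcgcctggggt
Pola1: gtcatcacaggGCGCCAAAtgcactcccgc
Gins3: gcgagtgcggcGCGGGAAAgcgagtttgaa
Orc1: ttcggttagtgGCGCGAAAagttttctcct
Rfc3: gcacgcTTTCGCGCtcGCGGGAAAactcta
In Mcm5 and Mcm6 a pair of matches on opposite strands overlaps, and in Rfc3 a pair lies across the start. The Mcm7 site lies within the span of its neighbour Ap4m1, which is read the other way. The sites of Brca2, Cdc6, Pola1 and Orc1 also lie wholly within a gene span that RefSeq lists, and 14 bases of the Rfc3 site do.

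Replication and repair genes were higher in FULA 1 than in either lung, nearly throughout the set. Against saline lung 35 of the 42 measured genes (83.3%) were called higher and 0 lower, where 13.9% of all genes were called higher and 13.5% lower. The median difference was 1.79 over these genes and -0.11 over all genes. Against urethane lung 37 of the 42 (88.1%) were called higher and 0 lower, where 13.2% of all genes were called higher and 11.6% lower, and the medians were 1.95 and -0.08. At 4-fold, 18 were called higher in each comparison, where 3.84% and 3.49% of all genes were. With low values held at the background mark, 10 remained at least 4-fold higher against saline lung and 11 against urethane lung. The share of all genes at 4-fold with held values was not counted, so these counts have no background. Both comparisons use the same FULA 1 array, so one is no check of the other. The median percentile rank of the 42 was 84.9 in FULA 1, 53.2 in saline lung and 51.6 in urethane lung, while that of all genes was 54.8, 58.7 and 57.8.

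All 42 lay above the background mark on FULA 1, against 58.2% of all genes. On saline lung 18 did and on urethane lung 17, where 49.5% and 48.9% of all genes lay above it. With low values held at the mark, 32 remained called higher against saline lung and 34 against urethane lung, where 10.8% and 10.4% of all genes were, and the medians were 1.45 and 1.63. How far the other differences run below the lung marks was not measurable, and the values given for those genes depend on it.

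The labels' tissue stood in the marker genes. The linear summed level of 5 alveolar type II markers was 31.0 in FULA 1, 2927 in saline lung and 3603 in urethane lung, and that of 3 club cell markers was 9.12, 3814 and 3881. Such sums follow their highest genes, and 4 of the 5 type II markers lay above the mark on FULA 1 too. Among them, Abca3 stood at 3.77 in FULA 1, 2.98 in saline lung and 5.21 in urethane lung. Of 4 type I markers, 3 were called lower in FULA 1 in both comparisons, but Aqp5, at 7.77, 5.28 and 5.49, was called higher. All measured markers of endothelium, fibroblasts, ciliated cells, alveolar type I cells and cardiac muscle lay above the mark on both lungs, as did 3 of 4 macrophage, 2 of 3 neutrophil, 1 of 3 B cell and 1 of 4 T cell markers. Of 5 listed markers of cycling cells, 4 were measured, with a summed level of 445 in FULA 1, 65.8 in saline lung and 51.7 in urethane lung. Mki67, the proliferation antigen, stood at 6.66, 3.56 and 3.01 in that order. Fewer dividing cells and less RNA per cell cannot be told apart in such samples, and the part of dividing cells in the results was not tested. The tumour state, growth in culture and the absence of other lung cell types cannot be told apart either.

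**Figure D1:**
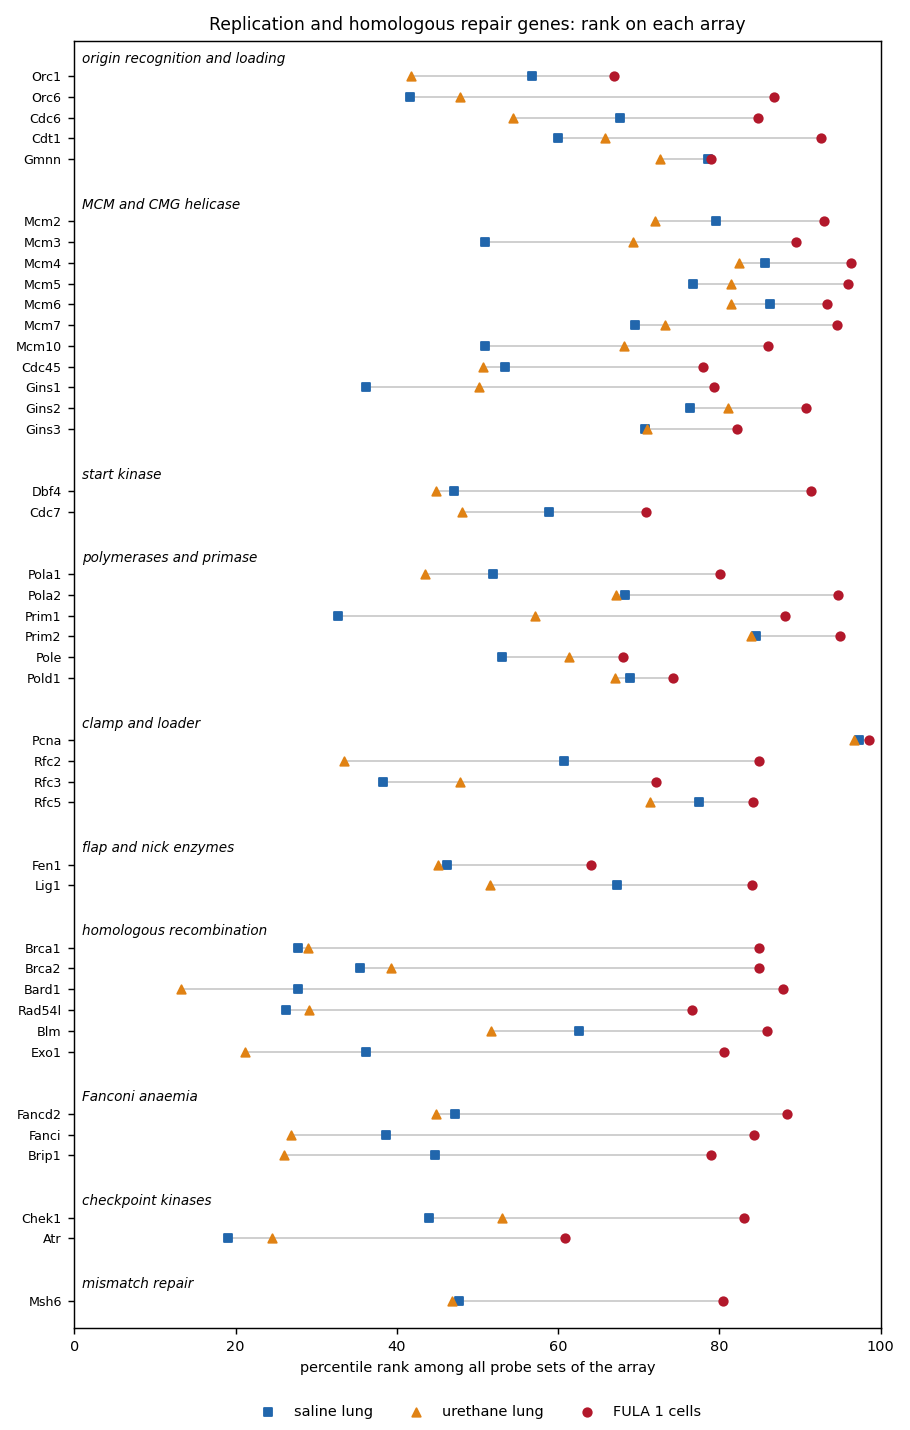
Percentile rank of each measured gene (vertical axis, grouped by role) among the probe sets of its own array (horizontal axis, 0 to 100), 1 point per array. The FULA 1 points have a median of 84.9 and lie to the right of both lung points for all 42 genes, while the lung points have medians of 53.2 and 51.6, with shifts of single genes between the lungs from -27.3 to 24.5.

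Of the proteins that mark and license origins, 5 were measured, and 3 were called higher in each comparison. Cdt1, which brings the Mcm ring to the origin, stood at 5.41 in FULA 1, 2.49 in saline lung and 2.77 in urethane lung, so FULA 1 was 2.93 and 2.64 above them. Orc6, the smallest subunit of the origin recognition complex, stood at 4.45, 1.84 and 2.01, with both lungs below the mark, and was at least 1.98 higher in FULA 1 than in saline lung and was called higher against urethane lung too. Cdc6, the loading ATPase, stood at 4.21, 2.87 and 2.24, and was 1.34 above saline lung and at least 1.77 above urethane lung. The remaining ones were called in neither comparison. Orc1, the large ATPase subunit, stood at 2.84, 2.34 and 1.84, and its FULA 1 value was at least 0.37 and 0.39 above the lungs. Gmnn (geminin), which binds Cdt1 and blocks a second loading, stood at 3.63, 3.60 and 3.17. Its difference of 0.03 from saline lung, 1.02-fold, was the smallest of the 42 and turned to -0.13 once a lowess curve was subtracted, while the Cdt1 difference from saline lung was 7.61-fold.

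All 6 subunits of the ring helicase were called higher in FULA 1 in both comparisons, with medians of 2.46 and 2.44. Mcm7 stood at 5.93 in FULA 1, 2.97 in saline lung and 3.21 in urethane lung, which is 7.78-fold above saline lung. The unused probe sets that Mcm7 shares with Mir25 and with Mir93 gave smaller differences from saline lung, 1.28 and 0.39. Their saline values lay below the mark, and for the Mir93 one the FULA 1 value did too. Mcm5 stood at 6.35, 3.47 and 3.85, which is 7.34-fold. Mcm3 stood at 4.83, 2.12 and 2.95, and its saline value lay below the mark, so the difference there was at least 2.37, with 1.88 against urethane lung. These 3 gave the larger differences of the ring from saline lung. Mcm4 stood at 6.51, 4.30 and 3.97, with differences of 2.21 and 2.54. Mcm2 stood at 5.51, 3.70 and 3.12, with differences of 1.81 and 2.39. Mcm6 stood at 5.58, 4.40 and 3.85, with 1.18 and 1.72, the smallest of the ring in both comparisons. The subunits form one complex in equal numbers, and the probe sets used for them gave differences from saline lung between 1.18 and 2.96.

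The factors that load onto the ring and make it run were called higher in 4 of 5 against saline lung. Mcm10, which helps to start the helicase, stood at 4.35, 2.12 and 2.89, and was at least 1.89 above saline lung and 1.46 above urethane lung. Gins1 stood at 3.67, 1.68 and 2.10, at least 1.21 and 1.23 higher in FULA 1. Gins2 stood at 5.04, 3.44 and 3.82, 1.60 and 1.23 higher. Both are subunits of GINS, the clasp between Cdc45 and the ring. Gins3, of the same complex, stood at 3.93, 3.05 and 3.07 and was called in neither comparison, with 0.88 and 0.86. Gins4, the remaining subunit, is not among the 44 genes and was 2.11 above saline lung. Cdc45 stood at 3.55, 2.21 and 2.11, at least 1.09 and 1.11 higher in FULA 1.

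Dbf4, which activates the Cdc7 kinase at the G1 to S boundary, was among the genes with the largest differences. It stood at 5.15 in FULA 1, 1.98 in saline lung and 1.92 in urethane lung, both lungs being below the mark, so that FULA 1 was at least 2.68 and 2.70 higher. The kinase itself, Cdc7, stood at 3.06, 2.42 and 2.02, at least 0.60 and 0.62 higher, and was called against urethane lung alone.

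Polymerase alpha and primase, which lay down the RNA-DNA primer of each fragment, were higher in FULA 1 in all 4 subunits. Pola2, the B subunit, stood at 5.97, 2.89 and 2.85, with differences of 3.07 and 3.12 that were measured above the mark on all arrays, and no other gene of the 42 had a larger difference from saline lung once values were held at the mark. Prim1, the catalytic primase, stood at 4.62, 1.60 and 2.35 and was at least 2.16 and 2.18 higher. Prim2, the large primase subunit, stood at 6.04, 4.18 and 4.10, 1.87 and 1.94 higher. The catalytic subunit Pola1 stood at 3.75, 2.15 and 1.90, at least 1.28 and 1.30 higher. The catalytic subunits of the main fork polymerases gave no such clear picture. Pold1, of polymerase delta, stood at 3.27, 2.93 and 2.85, with 0.34 and 0.43. Pole, of polymerase epsilon, averaged at least 1.19 above saline lung, but its probe sets gave 3.44 and -0.54, and 2.72 and -0.50 against urethane lung, so the direction rests on which probe set is read.

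Pcna, the sliding clamp, was high on every array. It stood at 7.92, 6.90 and 6.63, which are percentile ranks of 98.6, 97.3 and 96.7, and differed by 1.01 (2.02-fold) from saline lung and 1.29 from urethane lung. Its ranks on the 3 arrays lay close together. The clamp loader subunits lay lower. Rfc2 stood at 4.22, 2.52 and 1.62, 1.70 above saline lung and at least 1.78 above urethane lung. Rfc3 stood at 3.14, 1.74 and 2.01, at least 0.67 and 0.69 higher. Rfc5 stood at 4.13, 3.51 and 3.09, with 0.62 and 1.04. Behind the fork, Lig1, the ligase that seals fragments, stood at 4.12, 2.85 and 2.14, 1.27 above saline lung and at least 1.67 above urethane lung. Fen1, the nuclease that trims flaps, stood at 2.72, 1.96 and 1.94, at least 0.25 and 0.27 higher, and was called in neither comparison. Its probe sets gave 1.21 and 0.31 against saline lung, and 1.04 and 0.52 against urethane lung. Whether Fen1 passes 2-fold thus rests on which probe set is read.

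**Figure D2:**
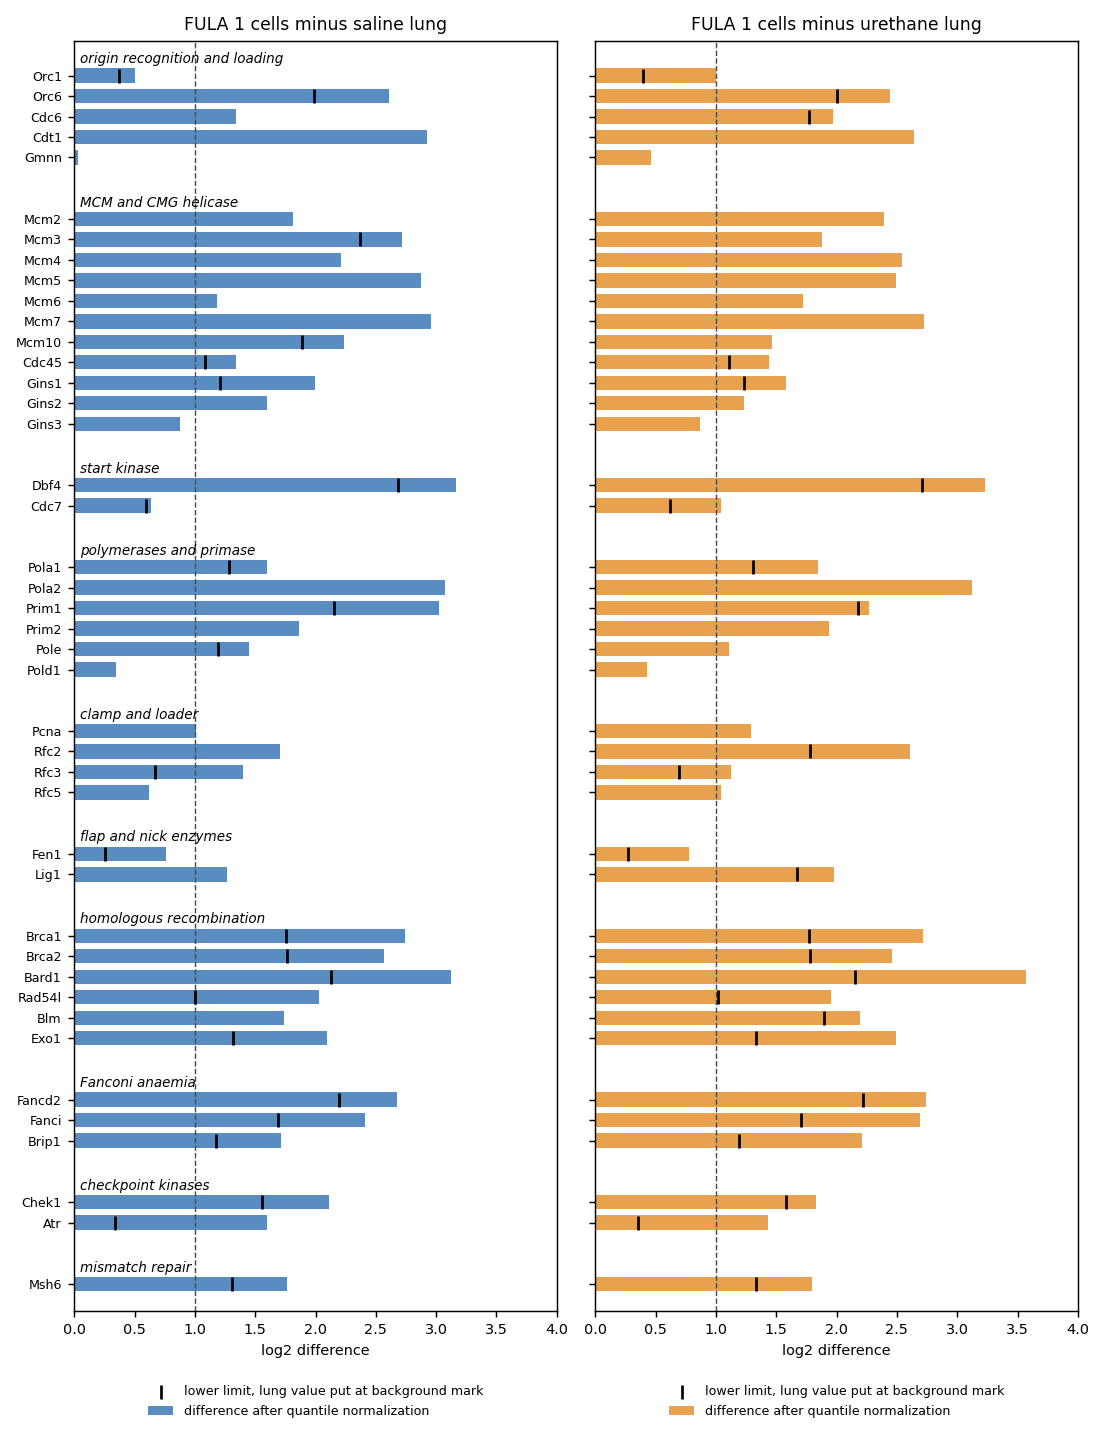
Difference in normalized log2 value between FULA 1 and each lung (horizontal axis) for each measured gene (vertical axis, grouped by role), as bars, with a black tick for the lower limit where a lung value lay below the background mark and a dashed line at 2-fold. The Pole bar is the mean of probe sets of opposite sign. The bars of Dbf4, Bard1, Pola2 and Prim1 reach above 3 against saline lung, only that of Pola2 with a saline value above the mark, and Gmnn lies at 0.03.

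Homologous recombination genes were called higher in 6 of 6 in both comparisons, with a median of 2.33 against saline lung. In each of them but Blm, both lung values lay below the mark. Bard1, the partner that gives Brca1 its ubiquitin ligase activity, stood at 4.60 in FULA 1, 1.48 in saline lung and 1.03 in urethane lung, at least 2.13 and 2.15 higher. Brca1 stood at 4.22 in FULA 1 and 1.48 in saline lung, with percentile ranks of 84.9, 27.8 and 29.0 on the 3 arrays, at least 1.75 and 1.77 higher. Brca2, a mediator of strand exchange, stood at 4.22, 1.66 and 1.76, at least 1.76 and 1.78 higher. These 3 genes were thus read from background on the lungs to percentile ranks of 84.9 to 87.9 on FULA 1. Exo1, which resects broken ends, stood at 3.78, 1.68 and 1.28, at least 1.31 and 1.33 higher. Rad54l, a motor that helps strand invasion, stood at 3.46, 1.43 and 1.51, at least 1.00 and 1.02 higher. An unused probe set that Rad54l shares with Lrrc41 gave 0.75 and 0.92, with both lung values above the mark. Blm, the helicase that dissolves joined strands, stood at 4.34, 2.59 and 2.14, 1.74 above saline lung and at least 1.89 above urethane lung.

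The 3 measured Fanconi anaemia genes showed the same picture. Fancd2, one of the pair that is ubiquitinated at crosslinks, stood at 4.66, 1.99 and 1.92, at least 2.20 and 2.22 higher in FULA 1. Fanci, its partner, stood at 4.15, 1.74 and 1.45, at least 1.68 and 1.70 higher. Brip1, a helicase that binds Brca1, stood at 3.64, 1.92 and 1.42, at least 1.17 and 1.19 higher. Of the checkpoint kinases, Chek1 stood at 4.02, 1.91 and 2.19, at least 1.56 and 1.58 higher. Atr stood at 2.80, 1.20 and 1.37, at least 0.33 and 0.35 higher, and its probe sets gave 2.34 and 0.85 against saline lung. Msh6, which recognises mismatched bases, stood at 3.77, 2.01 and 1.97, at least 1.31 and 1.33 higher.

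Set side by side, the repair and the replication genes of this set differed in where they lay on the lungs. Of the 30 measured replication genes, 17 lay above the mark in saline lung and 17, not all of them the same genes, in urethane lung. Of the 12 measured repair, checkpoint and mismatch genes, 1 did in saline lung and 0 in urethane lung. Of all genes 49.5% and 48.9% lay above the mark, and of 24 other recombination and Fanconi genes 10 and 8. On FULA 1 all 30 and all 12 lay above it. Of the 30, 23 were called higher against saline lung, with a median of 1.60, and of the 12 all were, with a median of 2.11. Against urethane lung the counts were 25 and 12, with medians of 1.79 and 2.34. These counts were not tested, and the median of the 12 rests on lung values below the mark. The split describes the 12 chosen genes and not repair genes at large.

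No replicate tells how far 1 array repeats, but genes with 2 probe sets give a rough measure within these arrays. Over 378 such genes the probe sets differed by a median of 1.05 in their FULA 1 minus saline difference, and over 342 genes by 1.00 in that against urethane lung. The probe sets had the same sign in 60.3% and 59.1% of these genes. Of the 42 genes, 34 and 37 lay above that gap, and 31 and 34 with low values held at the mark. The share of all genes above the gap was not counted, so these counts have no background. This measure covers differences between probes, not between mice or cultures.

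**Figure D3:**
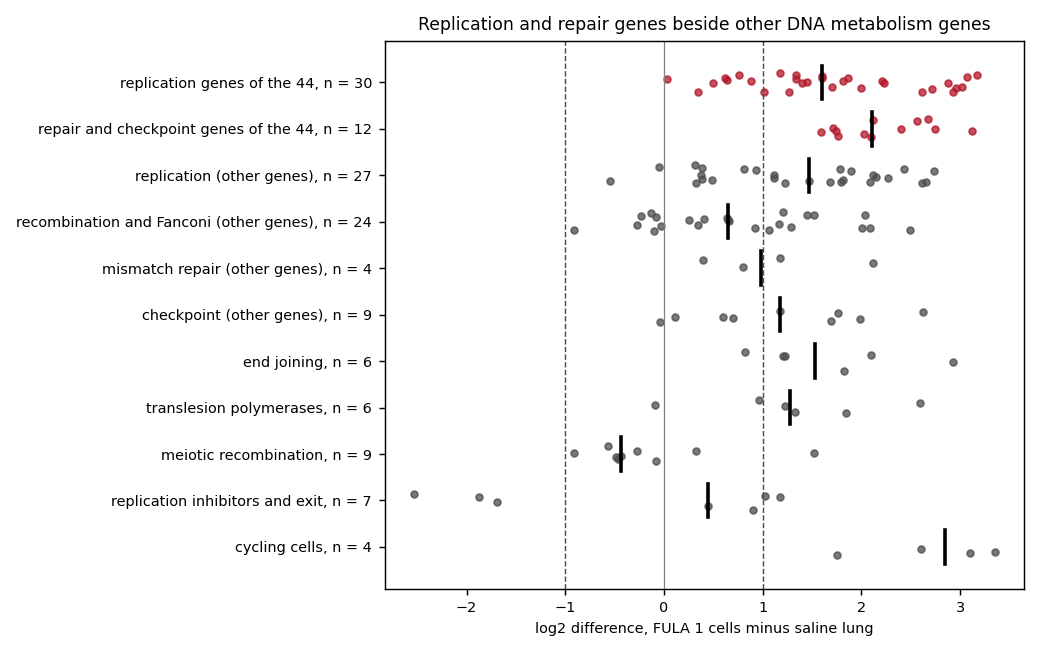
Difference in normalized log2 value between FULA 1 and saline lung (horizontal axis) for the genes of each list (vertical axis), 1 point per gene, a black bar for the list's median and dashed lines at 2-fold. The 30 replication genes have a median of 1.60 and the 12 repair, checkpoint and mismatch genes 2.11, the other replication genes 1.47, the other recombination and Fanconi genes 0.65 and the meiotic recombination genes -0.43. In 7 of the 9 meiotic genes both values lie below the mark, and with low values held there their median is 0.

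Other genes of the same pathways, listed by function, were also called higher in part. Of 27 other replication genes, 17 were called higher and 0 lower against saline lung, with a median of 1.47, and 15 against urethane lung, with 1.53. Topbp1, the scaffold that activates Atr, gave 2.74, Ticrr, which brings Cdc45 to the ring, at least 1.81, Rpa1, the large single-strand binding subunit, -0.05, and Pole4, a small polymerase epsilon subunit, -0.55. Of 24 other recombination and Fanconi genes, 9 were called higher against saline lung, with a median of 0.65, and 8 against urethane lung, with 0.79. Mre11a, the nuclease that opens broken ends, gave at least 2.08, Nbn, its partner in end sensing, -0.28, and Fancb, of the Fanconi core, at least 0.92. Rad51d gave -0.91. In the other checkpoint genes 5 of 9 were called higher, with Atm at least 1.71 and Chek2 at least 1.85, while Hus1 and Rad1, parts of the checkpoint clamp, gave 0.11 and -0.04, the saline value of Rad1 being below its mark. In the other mismatch repair genes it was 2 of 4, with Mlh3 at least 1.78 and Msh3 at least 0.37, Pms1 at least 0.19 and Pms2 with a bound of 0.

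Repair routes that do not copy from a sister strand were listed for contrast. Of 6 end joining genes, 5 were called higher against saline lung, with a median of 1.53. Xrcc5 and Xrcc6, the subunits of the Ku ring that caps broken ends, gave at least 2.82 and 1.24, and Lig4 and Nhej1, which seal them, at least 0.83 and 0.44. Of 6 translesion polymerase genes 4 were called higher, with a median of 1.28, from at least 1.62 in Poli and at least 1.40 in Polh down to 0.96 in Rev1 and -0.10 in Rev3l. The higher values in FULA 1 were thus not limited to genes of replication and homologous repair. Meiotic recombination genes lay apart from these, with 1 of 9 called higher, where 13.9% of all genes were, and a median of -0.43. In 7 of the 9, both the FULA 1 and the saline value lay below the mark. With low values held at the mark the median was 0. Of the 9, 8 were below both lung marks and 2 were above that of FULA 1. Spo11, the meiotic break enzyme, was the one called, and its bound was 0.

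Genes that hold back S phase did not share a direction. Of 7, 2 were called higher and 3 lower in FULA 1 against saline lung. Cdkn1a, the p21 inhibitor that p53 induces, gave -2.53, Cdkn1c, the p57 inhibitor, -1.87, and Btg2, an antiproliferative p53 target, -1.69. Btg1, its relative, gave 1.18 and Cdkn1b, the p27 inhibitor, 1.02.

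The E2F octamers were found in 15 of the 35 genes (42.9%) that have an entry in the RefSeq promoter table, which spans 250 bases before to 50 after a start. Of all 32851 such windows 2.26% hold one, and of protein-coding genes other than the 44, 3.21%. CCAAT, the box bound by NF-Y and searched on both strands, was found in 20 of the 35 (57.1%), against 42.3% of protein-coding genes other than the 44. Among other genes, an E2F octamer stood in 5.42% of those called higher in FULA 1 against saline lung and in 2.81% of those not called higher. It also stood in 29.2% of the other replication genes, 21.1% of the other recombination and Fanconi genes and 33.3% of the meiotic ones. A match is a string of letters and not a binding site. Among the 44, the differences of genes with and without an octamer overlapped. The 15 genes with one had a median of 1.60 against saline lung, from 0.34 to 3.12, and 12 were called higher. The 18 measured genes without one had a median of 1.92, from 0.62 to 3.17, and 15 were called higher. These values include lung values below the mark. Orc1, whose site is printed above, gave at least 0.37, and Dbf4, with no match in its window, at least 2.68.

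**Figure D4:**
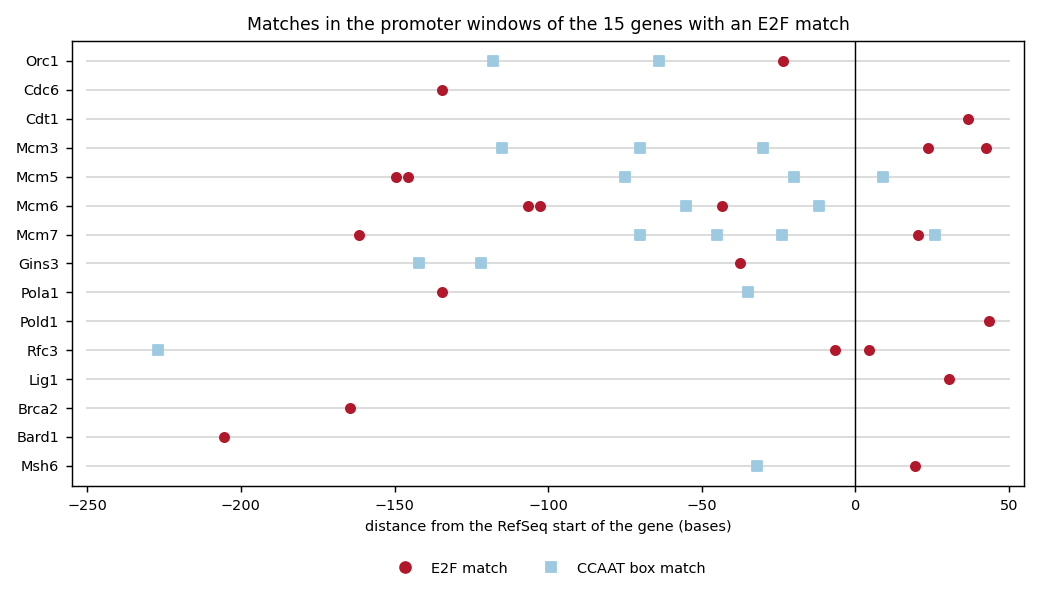
Position of E2F octamer (red) and CCAAT (blue) matches relative to the RefSeq start (horizontal axis, bases) in the genes that hold one (vertical axis), with a gene's several windows drawn together, each match against its own window's start. Of 21 E2F matches, 13 lie before the start, and 5 genes hold more than 1.

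Several of these genes share a short start region with a gene that runs the other way. Dbf4 starts 122 bases from Slc25a40, a mitochondrial carrier, which was 1.81 higher in FULA 1 than in saline lung where Dbf4 was at least 2.68 higher. Mcm7 starts 138 bases from Ap4m1, an adaptor subunit of membrane traffic, with 1.12 against 2.96. Brca1 starts 152 bases from Nbr1, an autophagy receptor, with 0.37 against at least 1.75. In these 3 pairs, picked after their values were seen, the replication or repair gene gave the larger difference. This did not hold for every such pair. Fen1 starts 281 bases from Tmem258, which gave 1.17 against 0.76 for Fen1 from saline lung, both saline values being below the mark. Distances are between starts in the RefSeq table of GRCm38.p6.

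Between the lungs, 1 week after urethane, none of the 42 genes was called higher or lower, where 1.84% of all genes were called higher and 0.739% lower. The median difference, urethane minus saline, was -0.06 for the 42 genes and -0.06 for all genes. The 14 genes above the mark on both lungs had a median of -0.08 and ran from -0.58 in Mcm2 to 0.38 in Mcm5. Of the 14, 9 lay below 0, as did 12325 of all 22180 genes. Mcm6 gave -0.54, Mcm4 -0.33, Pcna -0.28, Mcm7 0.24 and Gins2 0.37. The ring subunits thus did not share a direction, although on the values as deposited all 42 genes lay above 0, beside a median of all genes of 1.09. Of the remaining genes 21 were below both lung marks and have no size, 4 were above that of saline lung only and 3 above that of urethane lung only. At 1.5-fold, where 6.19% of all genes were called higher and 6.04% lower, Mcm3 and Mcm10 were higher on urethane lung, by at least 0.49 and 0.43. Rfc2, Lig1 and Cdc6 were lower by the same measure, with bounds of -0.08, -0.41 and -0.43. Mcm3 and Mcm10 shared one deposited value on saline lung, where 42.2% of the probe sets of these genes had a value that another probe set had too, so small differences there are coarse. Over 315 genes with 2 probe sets the median gap in this comparison was 0.43, and the probe sets had the same sign in 53.7% of these genes. Of the 42 genes, 12 lay beyond the gap, 3 of them with low values held at the mark. The share of all genes beyond it was not counted.

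All 4 measured markers of cycling cells were below 0 in this comparison, as were 12325 of all 22180 genes. The part of these markers in the comparison was not tested. Mki67 gave -0.55, Birc5, a chromosomal passenger, -0.44, Cdk1, the mitotic kinase, -0.30, and Top2a, the topoisomerase of dividing cells, -0.23, none of them called. Of 24 other recombination and Fanconi genes, 2 were called higher on urethane lung and 0 lower, where 1.84% and 0.739% of all genes were. They were Rad50, the end-bridging partner of Mre11a, at least 1.26 higher, and Fance, of the Fanconi core, 1.06 higher. Of the 24, 10 lay above 0 and 14 below, among them Fancf and Fancm with bounds of -0.68 and -0.65. No gene of the other replication, mismatch repair and checkpoint lists was called.

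**Figure D5:**
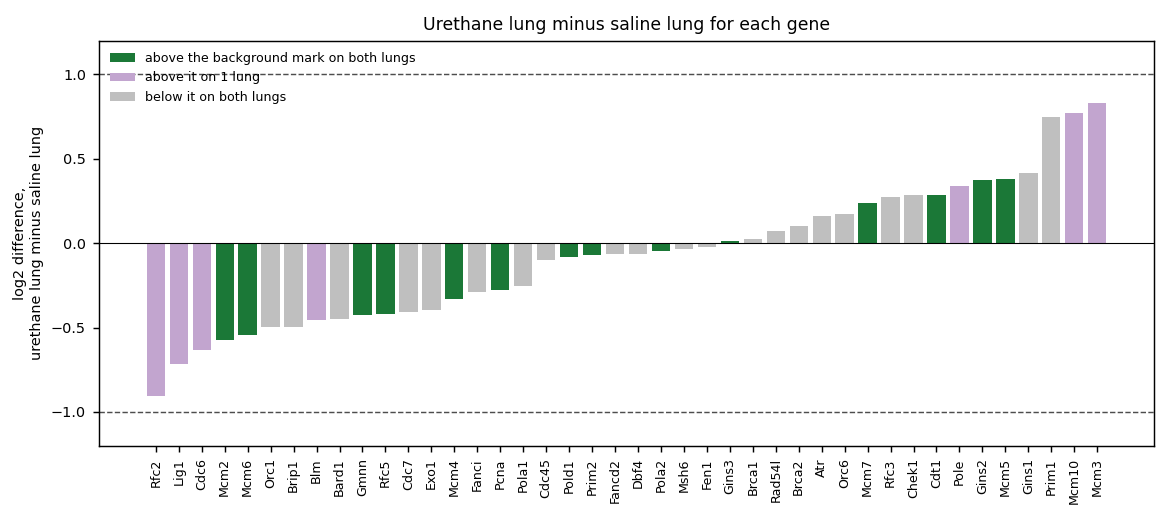
Difference in normalized log2 value between urethane lung and saline lung (vertical axis) for each measured gene (horizontal axis, in order of the difference), coloured by whether it lay above the background mark on both lungs, on one or on neither. All lie between -1 and 1, and the 14 genes above the mark on both lungs lie between -0.58 and 0.38.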

How the data were processed

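Total RNA (Trizol, spin columns) was labelled with biotin, per the labels' protocols. The authors deposited log2 values of 41345 probe sets, made with RMA per the submitters' processing notes and GeneSpring GX 12.5 per the design text. Which arrays were normalized together is not stated in the sources used here. The deposited columns had medians of 4.96, 0.08 and 1.22 and were not on one scale, so they were quantile normalized to the mean of the sorted columns. Probe sets with 1 symbol (23521; 1814 had several, 16010 none here) were averaged per gene, and 23328 were updated by Entrez identifier to GRCm38.p6. All 3 columns were used, with 0 of other samples.

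Every member was described by role. Of each other pathway or contrast list but the meiotic one, the 2 highest and 2 lowest against saline lung were named. Of the meiotic list Spo11 alone was named, and the marker lists were given by sums, counts or single genes. Gins4, the cycling markers, neighbours, genes past 1.5-fold and the Fanconi and recombination genes named between the lungs were added after their values were seen. The members and lists were chosen with earlier results of these data known. No test was made with 1 array per group, whose number limits the precision. Counting and scaling code was tested on simulated data. Python 3.11.15, numpy 2.4.6, pandas 2.3.3 and statsmodels 0.14.6 were used. Alternatives were other scalings, values held at the mark, the highest probe set of a gene, thresholds of 1.5-fold and 4-fold and other floors.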

Additional observations from a re-analysis of the deposited data

How the results depend on the processing

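The count of genes called higher in FULA 1 ran from 30 to 42 of 42 against saline lung and from 31 to 42 against urethane lung over all scalings, floors and the threshold of 1.5-fold, where 9.98% to 97.8% and 9.52% to 97.4% of all genes were, and 0 were called lower under any alternative run. At 4-fold, 18 were called higher in each, where 3.84% and 3.49% of all genes were. With low values held at the mark 10 and 11 reached 4-fold, and the share of all genes there was not counted. The median difference from saline lung was 2.91 with all arrays shifted to the same median and 7.79 on the values as deposited, and that from urethane lung 3.04 and 6.78. As deposited the median of all genes is itself 4.80 and 3.69 in these comparisons and 1.09 for urethane minus saline, so those values carry the scale of the columns. The split of all genes called higher and lower was 3073 and 2994 against saline lung, 7058 and 1785 after the shift and 21703 and 20 as deposited, and against urethane lung it was 2930 and 2581, 7154 and 1558, and 21603 and 22. Subtraction of a lowess curve turned the uncalled Gmnn difference from saline lung to -0.13.

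For urethane minus saline the median was 1.11 as deposited, with 5 genes called higher. With the quantiles of the FULA 1 array 2 were called higher and 3 lower, as at 1.5-fold, also 2 and 3. Over all genes the split there was 409 and 164, against 215 and 203 after the shift, 979 and 897 with the FULA 1 quantiles, 518 and 119 after the lowess curve and 5180 and 0 as deposited. The cause of these shifts was not tested. No paired analysis was possible because each group has 1 array, so no replicate could be left out or used as a block. Signal over background limits the lung values, since 24 of 42 genes on saline lung and 25 on urethane lung lay below the mark.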
